A study of Mus musculus with 6 samples.

Results

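The genes described here are 10 markers of fibroblasts and pericytes, the connective-tissue cells and the vessel-wall cells of a tissue: Pdgfra, Pdgfrb, Acta2, Tagln, Cnn1, Rgs5, Cspg4, Fap, Thy1 and Pdpn. They were looked up by symbol in a table of 13823 genes from 6 RNA sequencing libraries, and 9 of the 10 had a row, while Cnn1 had none. The libraries came from male Balb/c mice, 3 given isotoosendanin (ITSN, a limonoid of plant origin) by stomach tube at 1 mg/kg per day and 3 given dimethyl sulfoxide (DMSO) as vehicle. The tissue is labelled breast in all 6, the series title concerns triple-negative breast cancer and the type I receptor of transforming growth factor β, and the labels used here do not say whether a tumour was sampled, how old the mice were or how long they were treated. The values are FPKM (fragments per kilobase of transcript, scaled by the mapped total), so levels of different genes can be compared per length, but the depth of the libraries is unknown. In every listed gene the higher group mean was at least 0.5001 FPKM. A gene without a row may thus have been below that level, and a low gene may be listed through a single group only.

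Fibroblasts make and remodel the collagen matrix, and pericytes wrap small vessels. Both carry receptors for platelet-derived growth factors, PDGFRα mainly on fibroblasts and PDGFRβ on pericytes as well as on fibroblasts. In tumours, fibroblasts can take on the contractile proteins of smooth muscle, among them α smooth muscle actin and transgelin, and surface proteins such as FAP, THY1 and podoplanin. These genes are shared with other cells, THY1 with mouse T cells and podoplanin with lymphatic endothelium and some epithelia, so that a bulk level does not belong to a single cell type. In bulk tissue, fewer cells of a type and less RNA per cell cannot be told apart.

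Of the 9 listed genes, 6 stood above the middle of the table, and Pdpn, Fap and Cspg4 stood below it. By mean FPKM over the 6 libraries, Acta2 ranked 3495th of the 13823 listed genes, followed by Pdgfra at 4323, Thy1 at 4667, Rgs5 at 4990, Tagln at 5507, Pdgfrb at 6448, Pdpn at 7560, Fap at 10928 and Cspg4 at 13726. Every pair of neighbours in this order overlapped in its range over the libraries. Of the 9 genes, 8 reached 1 FPKM in at least 3 libraries and were tested, and Cspg4 did not.

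The libraries differed in more than the markers, and vehicle 1 stood away from the rest. On the leading principal component (54.1% of the variance), the ITSN libraries scored 4.30 to 20.1, vehicle 1 scored -43.2, and vehicle 2 and 3 scored -4.63 and 10.9. Mitochondrially encoded transcripts took 13.5% to 15.6% of the FPKM sum in ITSN libraries and 32.3% in vehicle 1, 22.4% in vehicle 2 and 17.5% in vehicle 3. Genes of the ribosomal RNA region took 4.01% to 5.32% in ITSN and 2.41% to 2.88% in vehicle. Neither share overlapped between the groups, so these differences cannot be told apart from treatment. Changes of named genes that turn sign or move by more than 1.5 times without vehicle 1 are given with that value as well.

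No marker gene changed detectably between ITSN and vehicle. In limma on log2(FPKM + 1), with Benjamini-Hochberg adjustment over all 12257 tested genes, 0 of the 8 tested markers had an adjusted p under 0.05, where 7 genes (0.0571%) did in all, 6 higher and 1 lower in ITSN. That split of calls was 61 higher and 54 lower after trimmed-mean scaling. At an unadjusted p under 0.05 the markers also numbered 0 of 8, against 20.9% of all tested genes. The log2 changes ran from -0.24 for Rgs5 to 0.43 for Thy1, and every 95% interval included 0. Without vehicle 1, where 5.49% of all genes passed, 0 of 8 markers passed, and Rgs5 alone had an unadjusted p under 0.05, against 28.8% of all genes. With 3 libraries per group, an exact two-sided permutation test cannot give a p below 0.1.

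**Figure D1:**
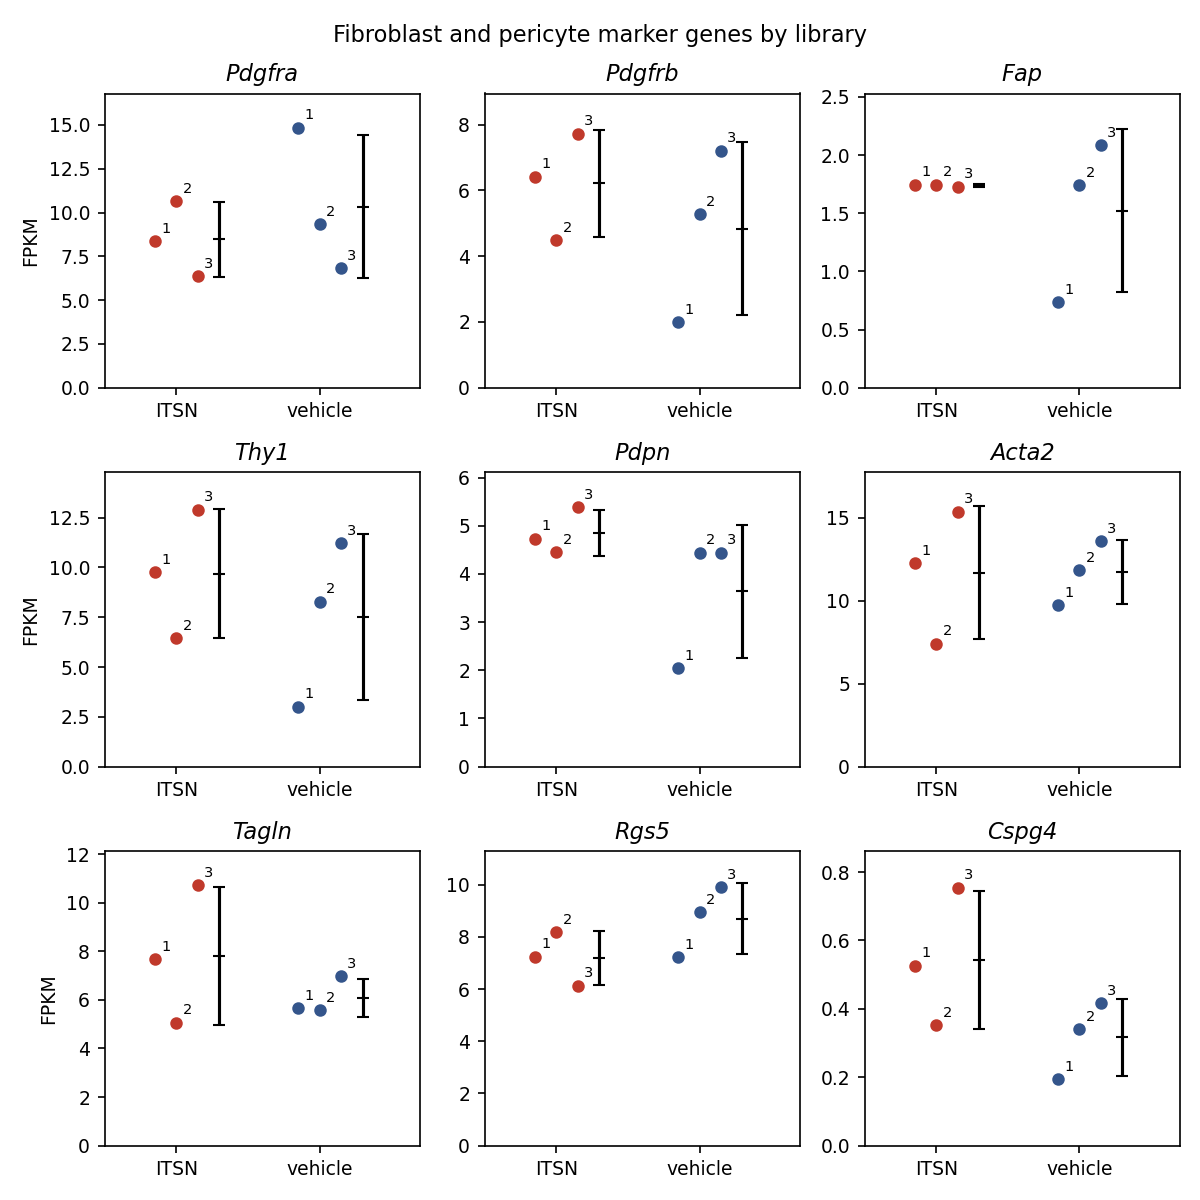
FPKM of the 9 listed marker genes in each library, with ITSN in red at the left and vehicle in blue at the right of each panel. Numbers beside points are replicate numbers and bars are means ± SD (n = 3 each). Vehicle 1 is the lowest library for Pdgfrb, Thy1, Fap, Pdpn and Cspg4 and the highest for Pdgfra.

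Of the 2 PDGF receptor genes, Pdgfra had 8.35, 10.7 and 6.38 FPKM in ITSN 1, 2 and 3, against 14.8, 9.35 and 6.82 FPKM in vehicle 1, 2 and 3. The groups overlapped, and the highest value was that of vehicle 1. Pdgfra averaged 8.46 ± 2.14 FPKM in ITSN and 10.3 ± 4.10 FPKM in vehicle (SD, n = 3 each, exact permutation p = 0.6). Its log2 change was -0.22 (SE 0.28, 95% interval -0.90 to 0.45, limma adjusted p = 0.70). Without vehicle 1 the change was 0.048, so that its sign rested on that library.

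Pdgfrb, the receptor gene of pericytes and many fibroblasts, had 6.42, 4.49 and 7.73 FPKM in ITSN 1, 2 and 3, against 2.00, 5.27 and 7.21 FPKM in vehicle 1, 2 and 3. The lowest value was again that of vehicle 1, and the other 5 libraries overlapped. The means were 6.21 ± 1.63 FPKM in ITSN and 4.83 ± 2.63 FPKM in vehicle (SD, n = 3 each, exact permutation p = 0.6), with a log2 change of 0.40 (SE 0.38, 95% interval -0.50 to 1.30, limma adjusted p = 0.60). Without vehicle 1 the change was -0.018 (95% interval -0.55 to 0.51).

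The receptors ran in opposite directions across libraries. Pdgfrb increased in the order vehicle 1, ITSN 2, vehicle 2, ITSN 1, vehicle 3, ITSN 3, and Pdgfra decreased in exactly that order. The first order was that of 1.53% of all tested genes and the reverse that of 0.726%. The ratio of Pdgfrb to Pdgfra was 0.769, 0.421 and 1.21 in ITSN 1, 2 and 3, against 0.135, 0.564 and 1.06 in vehicle 1, 2 and 3. It thus spanned 8.98-fold over the 6 libraries, while its means of 0.800 ± 0.395 in ITSN and 0.585 ± 0.461 in vehicle did not differ beyond the spread (SD, n = 3 each, exact permutation p = 0.6). This ratio and the 2 ratios below were chosen after the values were seen.

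Among the ligands, Pdgfc, which binds PDGFRα, was the most abundant, with 14.4, 18.4 and 10.1 FPKM in ITSN 1, 2 and 3, against 19.4, 14.2 and 11.2 FPKM in vehicle 1, 2 and 3. Its highest libraries in each group were those of Pdgfra. Pdgfb, the ligand made by endothelium that recruits pericytes, had 5.30, 3.66 and 7.18 FPKM in ITSN and 3.19, 3.53 and 3.91 FPKM in vehicle (log2 change 0.45, limma adjusted p = 0.27). The log2 change was 0.12 for Pdgfa and -0.065 for Pdgfc (limma adjusted p = 0.69 and 0.91), and that of Pdgfc turned to 0.13 without vehicle 1. Of the 4 ligand genes 3 were listed and tested, and 0 passed; Pdgfd had no row.

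**Figure D2:**
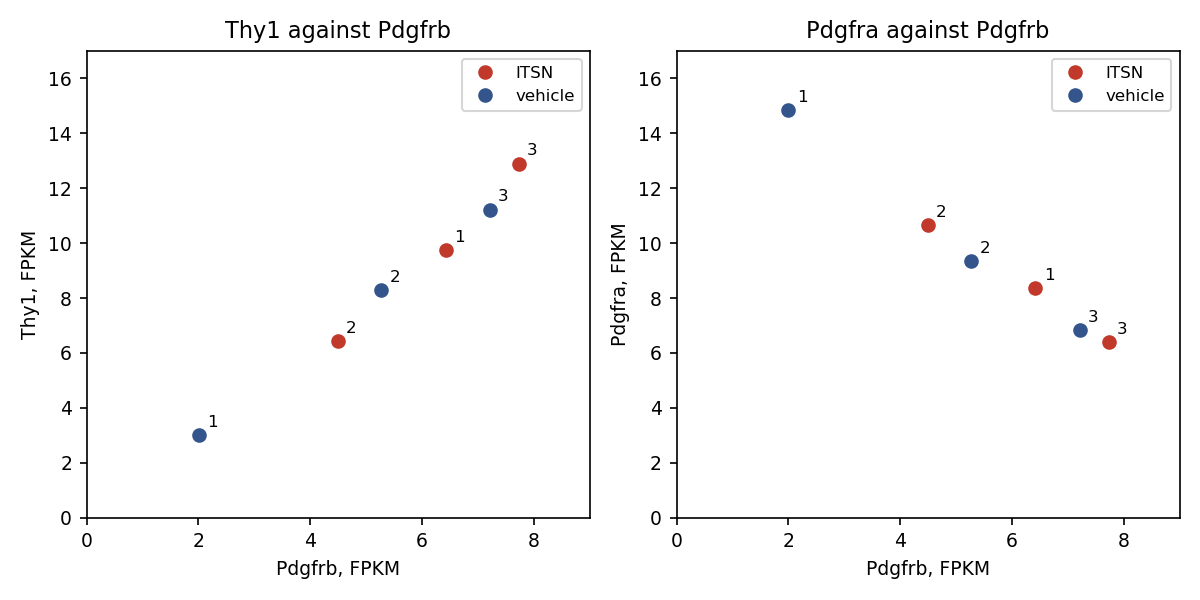
FPKM of Thy1 (left) and Pdgfra (right) on the vertical axes against FPKM of Pdgfrb on the horizontal axes, 1 point per library, ITSN in red and vehicle in blue, with replicate numbers. Thy1 increases with Pdgfrb through all 6 libraries and Pdgfra decreases, with vehicle 1 at the end of both.

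The contractile genes differed more among ITSN mice than between groups. Acta2, which encodes α smooth muscle actin, had 12.3, 7.41 and 15.4 FPKM in ITSN 1, 2 and 3, against 9.71, 11.8 and 13.6 FPKM in vehicle 1, 2 and 3. ITSN held both the lowest and the highest library. The means were 11.7 ± 4.01 FPKM in ITSN and 11.7 ± 1.94 FPKM in vehicle (SD, n = 3 each, exact permutation p = 1), and the log2 change was -0.045 (SE 0.25, 95% interval -0.65 to 0.56, limma adjusted p = 0.94). It was -0.16 without vehicle 1, 0.060 without vehicle 3 and 0.23 without ITSN 2.

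Tagln, which encodes the actin-binding protein transgelin (SM22α), had 7.68, 5.06 and 10.7 FPKM in ITSN 1, 2 and 3, against 5.66, 5.59 and 6.97 FPKM in vehicle 1, 2 and 3. Again ITSN 2 was the lowest and ITSN 3 the highest of all. Its means were 7.82 ± 2.83 FPKM in ITSN and 6.07 ± 0.781 FPKM in vehicle (SD, n = 3 each, exact permutation p = 0.4), with a log2 change of 0.27 (SE 0.24, 95% interval -0.29 to 0.84, limma adjusted p = 0.57). It was 0.042 without ITSN 3 and 0.52 without ITSN 2. Exons of Tagln overlap those of Pcsk7 on the opposite strand, and no source used here states whether reads were counted by strand, so the Tagln values are uncertain. Pcsk7 itself had 2.61, 2.56 and 2.93 FPKM in ITSN and 1.88, 2.16 and 2.05 FPKM in vehicle.

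Within ITSN, the SD of log2(FPKM + 1) was 0.49 for Acta2 and 0.48 for Tagln, above that of 97.9% and 97.8% of all tested genes. Within vehicle it was 0.22 and 0.15, above 58.8% and 41.5%. A wide spread within ITSN was not particular to these genes. Thy1, Pdgfrb and Pdgfra had 0.45, 0.34 and 0.33 there, above 97.5%, 94.9% and 94.5%, and 0.84, 0.75 and 0.51 within vehicle. Rgs5, Pdpn and Fap had less within ITSN, at 0.18, 0.12 and 0.0055. The ratio of Acta2 to Tagln was 1.60, 1.46 and 1.43 in ITSN 1, 2 and 3, against 1.72, 2.12 and 1.95 in vehicle 1, 2 and 3 (exact permutation p = 0.1, the smallest possible). These groups did not overlap, but the ratio was chosen after the values were seen. How often ratios of other genes separate the groups was not computed, so no difference is claimed. The Pcsk7 values likewise did not overlap between the groups, as was so for 29.1% of all tested genes, and their part in this ratio was not tested.

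The promoter of Acta2 is shown because SRF, the serum response factor that controls contractile genes, binds CArG boxes there. The 250 bases before the RefSeq start of Acta2 (GRCm38.p6, chr19:34255374-34255623, minus strand, 5′ to 3′) read as follows, with CArG-like runs in capitals:
Acta2: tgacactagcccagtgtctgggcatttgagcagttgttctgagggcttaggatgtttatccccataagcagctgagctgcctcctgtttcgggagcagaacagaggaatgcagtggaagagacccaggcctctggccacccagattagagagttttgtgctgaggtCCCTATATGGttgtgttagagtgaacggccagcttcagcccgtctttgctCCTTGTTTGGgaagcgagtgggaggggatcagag

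A CArG-like run was searched as CCNNNNNNGG with at least 5 of the 6 middle bases A or T, a pattern that reads the same on both strands. Acta2 had 2, CCCTATATGG starting 84 bases and CCTTGTTTGG starting 34 bases before the start. Of all 32851 windows from 250 bases before to 50 bases after a start, 9.98% held at least 1 such run and 0.822% held 2 or more. Windows were found for 6 of the 10 marker genes, and Acta2 was the only 1 of these 6 with a run. Such a match is a description of the sequence and not of binding. Annotations disagree on the start of Acta2, at 34255336 in the deposited list and 34255590 in GENCODE M21. The latter lies within the bases shown, so the distances hold for the RefSeq start only.

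Of 12 other smooth muscle genes 10 were listed and 7 tested, 4 of them higher and 3 lower in ITSN; their median log2 change was 0.094 and 0 passed, beside 64.0% higher and a median of 0.085 over all tested genes. After trimmed-mean scaling 3 were higher and 4 lower, with a median of -0.0052. The 2 with the smallest p were Tpm2, a tropomyosin, at 4.32 ± 0.456 FPKM in ITSN and 2.79 ± 0.864 FPKM in vehicle (log2 change 0.51, limma adjusted p = 0.17), and Smtn, which encodes smoothelin, at 37.0 ± 8.02 FPKM in ITSN and 27.8 ± 0.780 FPKM in vehicle (0.38, adjusted p = 0.24; SD, n = 3 each). Smooth muscle myosin Myh11, chosen after its values were seen, stood at 0.426 to 0.744 FPKM in ITSN and 0.620 to 0.752 FPKM in vehicle. Of SRF, its cofactors and regulators, 4 of 7 names (older and newer symbols included) were tested and 0 passed. Srf differed by 0.33 and its coactivator gene Mkl1 by 0.37 on the log2 scale (limma adjusted p = 0.25 and 0.15), and after removal of the GC trend Srf stood at -0.079, Mkl1 at 0.11 and Smtn at 0.074. Smtn passed without vehicle 1 and ITSN 2, with a log2 change of 0.52 (limma adjusted p = 0.044, range over the alternatives 0.044 to 0.85).

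Relatives of the contractile markers were listed at higher levels. The calponin family genes Tagln2, Cnn2 and Cnn3 had means of 61.2 ± 4.42, 53.6 ± 5.27 and 26.7 ± 2.59 FPKM in ITSN, against 54.0 ± 7.26, 43.9 ± 9.18 and 29.6 ± 2.70 FPKM in vehicle (SD, n = 3 each). Their log2 changes were 0.18, 0.30 and -0.14 (limma adjusted p = 0.45, 0.37 and 0.52); Tagln3 had no row. Without vehicle 1, Tagln2 stood at 0.074 and Cnn2 at 0.12. The cytoplasmic actins Actb and Actg1 had log2 changes of 0.11 and -0.28 (limma adjusted p = 0.76 and 0.47). Without vehicle 1, Actg1 passed with a log2 change of -0.50 (limma adjusted p = 0.046, range over the alternatives 0.046 to 0.74), and the change of Actb turned to -0.044, as it did to -0.014 after trimmed-mean scaling of all libraries.

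The other muscle actins share much of their coding sequence with Acta2. Skeletal muscle actin Acta1 had 8.76, 20.9 and 0.0521 FPKM in ITSN 1, 2 and 3, so that it was highest where Acta2 was lowest. In vehicle 1, 2 and 3 it had 0.00615, 0.937 and 1.23 FPKM, rising in the same order as Acta2 did there. Its log2 change was 1.90 (limma adjusted p = 0.36). Enteric smooth muscle actin Actg2 was low, with 1.44, 0.153 and 1.99 FPKM in ITSN and 0.285, 0.419 and 0.907 FPKM in vehicle, and like Acta2 it was lowest in ITSN 2 and highest in ITSN 3. Actc1 had no row.

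Of the pericyte genes, Rgs5, a regulator of G protein signalling, had 7.24, 8.18 and 6.13 FPKM in ITSN 1, 2 and 3, against 7.22, 8.94 and 9.91 FPKM in vehicle 1, 2 and 3. Vehicle 1 lay among the ITSN libraries, and vehicle 2 and 3 lay above all of them. The means were 7.18 ± 1.03 FPKM in ITSN and 8.69 ± 1.36 FPKM in vehicle (SD, n = 3 each, exact permutation p = 0.3). The log2 change was -0.24 (SE 0.15, 95% interval -0.59 to 0.11, limma adjusted p = 0.40). Without vehicle 1 it was -0.36 (95% interval -0.66 to -0.053, limma adjusted p = 0.13), and adjusted p ranged from 0.061 to 0.83 over the alternatives. The lowest was that without both vehicle 1 and ITSN 2, a choice made after the values were seen. Rgs5 transcripts are low in GC content, at 41.1% against a median of 48.6% over tested genes, and after the GC trend was removed the change was -0.072.

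Cspg4, the gene of the pericyte proteoglycan NG2, had 0.526, 0.352 and 0.754 FPKM in ITSN 1, 2 and 3, against 0.194, 0.340 and 0.416 FPKM in vehicle 1, 2 and 3. The groups overlapped through ITSN 2. At these levels only 0.702% of the listed genes were lower. The means were 0.544 ± 0.202 FPKM in ITSN and 0.317 ± 0.113 FPKM in vehicle (SD, n = 3 each, exact permutation p = 0.2). Listed genes had a higher group mean of at least 0.5001 FPKM, which Cspg4 reached in ITSN only. Its being higher in ITSN is thus tied to its being listed, and this comparison cannot show a difference. Without the filter on low values its log2 change was 0.23 (limma adjusted p = 0.36).

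Of 18 other pericyte genes 12 were listed and 6 reached the filter, and of these 2 were higher and 4 lower in ITSN. The median log2 change was -0.064 and 0 passed, beside 64.0% higher over all tested genes. Without vehicle 1, 4 were higher and 2 lower, with a median of 0.043. After removal of the GC trend the counts were again 4 and 2, with a median of 0.018. Angpt1, the ligand of the endothelial receptor TIE2, had means of 9.24 ± 3.55 FPKM in ITSN and 11.5 ± 1.07 FPKM in vehicle (log2 change -0.34, limma adjusted p = 0.48). Anpep, which encodes aminopeptidase N (CD13), had 6.65 ± 1.68 FPKM in ITSN and 5.05 ± 2.11 FPKM in vehicle (0.39, adjusted p = 0.53; SD, n = 3 each), and its change was 0.057 without vehicle 1. The potassium channel genes Abcc9 and Kcnj8, named after their values were seen, stood at 1.14 to 1.42 and 0.793 to 1.35 FPKM in ITSN and at 1.26 to 1.46 and 0.589 to 0.761 FPKM in vehicle. Endothelial markers, with 10 of 11 tested and 0 that passed, summed to 35.3 to 43.6 FPKM in ITSN and 35.5 to 47.1 FPKM in vehicle. Eng and Tek, an endothelial coreceptor and the TIE2 gene, differed by 0.38 and -0.27 on the log2 scale (limma adjusted p = 0.15 and 0.42).

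The surface and activation genes of fibroblasts were lowest in vehicle 1. Thy1, the gene of the surface glycoprotein CD90, had 9.74, 6.44 and 12.9 FPKM in ITSN 1, 2 and 3, against 3.01, 8.28 and 11.2 FPKM in vehicle 1, 2 and 3. Its libraries fell in the same order as those of Pdgfrb. The means were 9.69 ± 3.23 FPKM in ITSN and 7.50 ± 4.16 FPKM in vehicle (SD, n = 3 each, exact permutation p = 0.6). The log2 change was 0.43 (SE 0.43, 95% interval -0.60 to 1.46, limma adjusted p = 0.62), and -0.040 without vehicle 1.

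Thy1 and Pdgfrb kept nearly the same ratio while both varied. The pair was chosen after the values were seen, and how often other pairs of genes keep as steady a ratio was not computed. Over the 6 libraries Thy1 spanned 4.28-fold and Pdgfrb 3.86-fold, yet the ratio of Thy1 to Pdgfrb was 1.52, 1.43 and 1.67 in ITSN 1, 2 and 3, against 1.50, 1.57 and 1.56 in vehicle 1, 2 and 3. Its means were 1.54 ± 0.119 in ITSN and 1.54 ± 0.0346 in vehicle (SD, n = 3 each, exact permutation p = 1). Of 10 T cell markers, cells that also express Thy1 in mice, 4 were listed and 1 tested, and the 4 summed to 3.47 to 3.66 FPKM in ITSN and 2.67 to 3.53 FPKM in vehicle. The log2 change of the T cell kinase gene Lck was 0.22 (limma adjusted p = 0.24). Cd3d, Cd2, Cd4 and Trac had no row.

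Fap, the gene of a serine protease of activated fibroblasts, had 1.75, 1.75 and 1.73 FPKM in ITSN 1, 2 and 3, against 0.734, 1.74 and 2.09 FPKM in vehicle 1, 2 and 3. The ITSN libraries were nearly equal and lay between the vehicle libraries. The log2 change was 0.16 (SE 0.21, 95% interval -0.35 to 0.67, limma adjusted p = 0.71), and -0.087 without vehicle 1 (95% interval -0.32 to 0.14).

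Pdpn, which encodes the mucin-type protein podoplanin, had 4.73, 4.45 and 5.38 FPKM in ITSN 1, 2 and 3, against 2.05, 4.44 and 4.44 FPKM in vehicle 1, 2 and 3. It was the only 1 of the 8 tested markers whose groups did not overlap, by a gap in the third digit between ITSN 2 and vehicle 2, where 29.1% of all tested genes did not overlap. The means were 4.86 ± 0.479 FPKM in ITSN and 3.64 ± 1.38 FPKM in vehicle (SD, n = 3 each, exact permutation p = 0.1). The log2 change was 0.38 (SE 0.24, 95% interval -0.18 to 0.95, limma adjusted p = 0.41), and 0.10 without vehicle 1 (95% interval -0.14 to 0.34). Of 6 lymphatic endothelial markers 2 were listed, and they summed to 1.64 to 2.29 FPKM in ITSN and 1.46 to 1.91 FPKM in vehicle. The 1 tested was Lyve1, whose log2 change of 0.098 (limma adjusted p = 0.74) was 0.049 without vehicle 1 and turned to -0.028 after quantile normalization; Prox1 had no row.

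**Figure D3:**
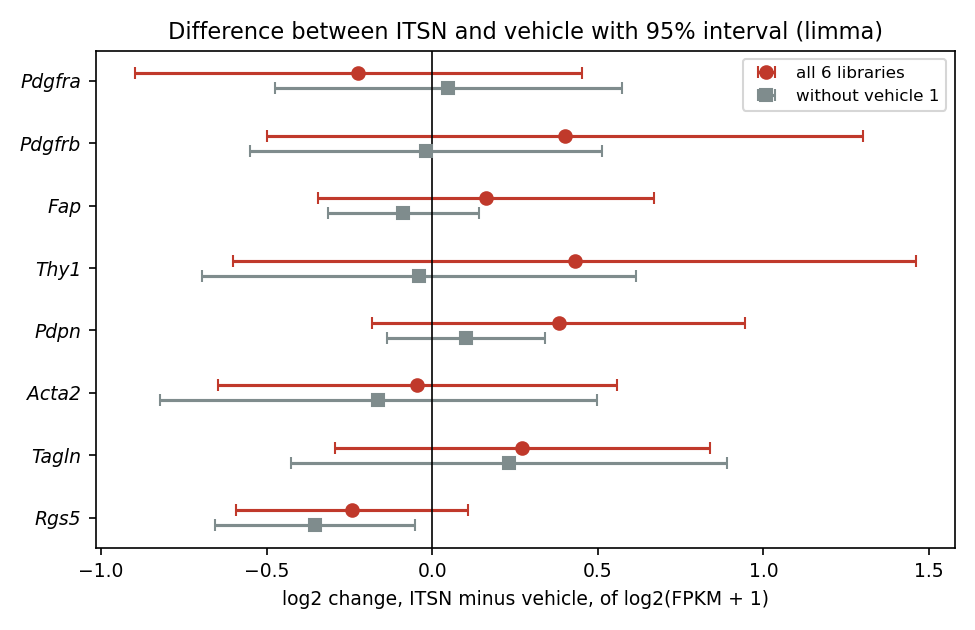
Log2 change between ITSN and vehicle (ITSN minus vehicle, on log2(FPKM + 1)) of the 8 tested markers, with 95% intervals from limma, over all 6 libraries (red circles) and without vehicle 1 (grey squares). Leaving out vehicle 1 moves Pdgfra, Pdgfrb, Fap and Thy1 across 0, and the interval of Rgs5 then lies below 0, although its adjusted p is 0.13.

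Without vehicle 1 the changes of Pdgfra, Pdgfrb, Fap and Thy1 turned sign and that of Pdpn shrank, those of Rgs5 and Acta2 moved further below 0, and that of Tagln was 0.23 in place of 0.27. Vehicle 1 was the lowest of the 6 libraries for 4 of the 8 tested markers and the highest for 1, shares near the 52.1% and not far from the 14.6% of all tested genes. ITSN 3 was the highest for 5 of 8, against 27.6% of all tested genes. In vehicle 1, Thy1 stood at 0.310, Pdgfrb at 0.322, Fap at 0.406, Cspg4 at 0.407 and Pdpn at 0.437 of the mean of the other 5 libraries, Tagln, Acta2 and Rgs5 at 0.786, 0.803 and 0.894, and Pdgfra at 1.79. When FPKM were rescaled without mitochondrial and ribosomal RNA region genes, Thy1, Pdgfrb, Fap, Cspg4 and Pdpn stood at 0.358, 0.372, 0.468, 0.470 and 0.504, Tagln, Acta2 and Rgs5 at 0.908, 0.928 and 1.03, and Pdgfra at 2.05. Rgs5 was then no longer low in vehicle 1, and Acta2 and Tagln came closer to the other libraries. Without both vehicle 1 and ITSN 2, a choice made after the values were seen, 8.44% of all genes passed and 0 of the 8 markers did.

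Of 22 other fibroblast genes 19 were listed and 16 tested, 14 higher and 2 lower in ITSN. The median log2 change was 0.29 and 0 passed, beside 64.0% higher and a median of 0.085 over all tested genes. After trimmed-mean scaling 13 were higher and 3 lower, with a median of 0.19, beside 48.2% higher over all. Without vehicle 1 the counts were 7 higher and 9 lower with a median of -0.021, beside 54.5% higher over all. Vehicle 1 was the lowest library for 13 of the 16 and the highest for 2, where it was the lowest for 52.1% of all tested genes and for 9 of 10 macrophage markers. Of the 16, 4 collagen genes (Col1a1, Col1a2, Col6a1 and Col6a2), named after their values were seen, ordered the 6 libraries exactly as Pdgfrb and Thy1 did. Pdgfra ordered the libraries in exactly the reverse, with vehicle 1 the highest. Col1a1 had 63.8, 38.0 and 85.1 FPKM in ITSN 1, 2 and 3, against 12.3, 48.3 and 66.4 FPKM in vehicle 1, 2 and 3. The 2 with the smallest p were Loxl1, a lysyl oxidase that crosslinks elastic fibres, and Mfap5, a microfibril protein, with log2 changes of 0.63 and 0.43 (limma adjusted p = 0.25 and 0.51), or 0.36 and 0.057 without vehicle 1.

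Genes of myofibroblasts gave 8 higher and 2 lower of 10 tested, a median log2 change of 0.10 and 0 that passed, beside 64.0% higher over all tested genes. After trimmed-mean scaling 5 were higher and 5 lower, with a median of 0.010. Without vehicle 1 the median was -0.19, and 1 gene passed: Cthrc1, a secreted collagen triple helix protein, had 1.81, 1.43 and 1.62 FPKM in ITSN 1, 2 and 3, against 1.18, 2.97 and 3.37 FPKM in vehicle 1, 2 and 3. Its log2 change was -0.36 with all libraries (limma adjusted p = 0.48) and -0.67 without vehicle 1 (0.039, range over the alternatives 0.038 to 0.76). Lrrc15, a membrane protein of myofibroblasts in tumours, had 4.70, 0.784 and 7.35 FPKM in ITSN, against 0.187, 2.66 and 3.82 FPKM in vehicle (log2 change 0.67, adjusted p = 0.64), and its change was 0.066 without vehicle 1. Of the inflammatory fibroblast genes 8 of 11 were tested, 3 higher and 5 lower with a median of -0.067, and 0 passed. Without vehicle 1, 4 were higher and 4 lower, with a median of 0.028. The cytokine gene Lif and complement gene C3 had log2 changes of 0.35 and 0.25 (limma adjusted p = 0.13 and 0.27), and that of C3 was 0.14 without vehicle 1.

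**Figure D4:**
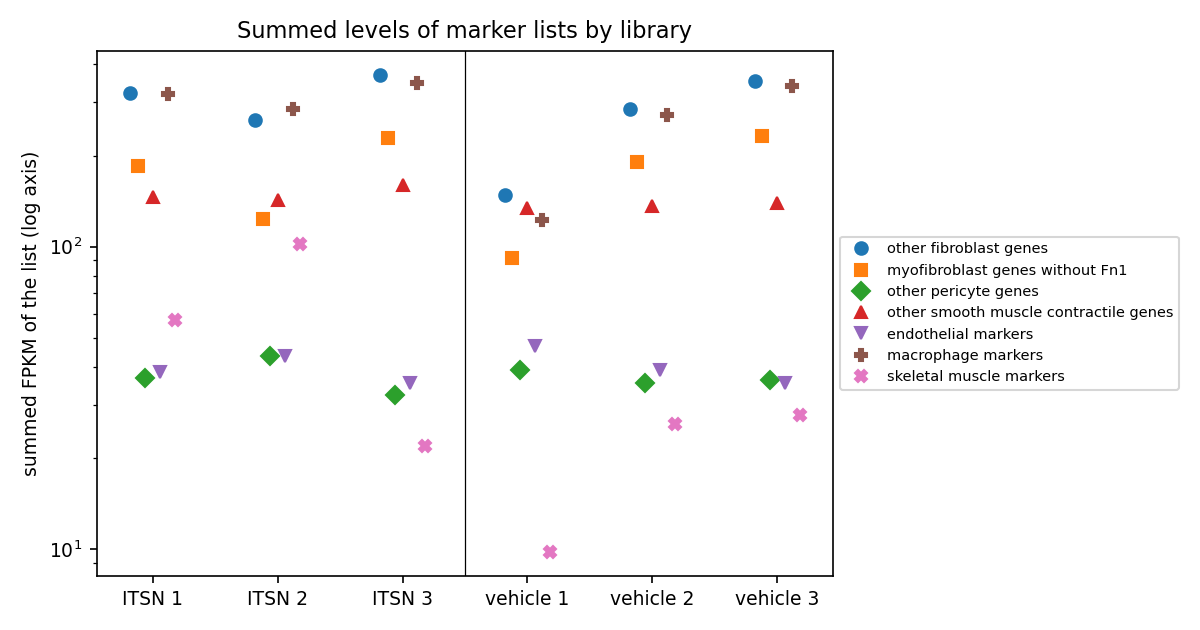
Summed FPKM (log axis) of 7 marker lists in each library, ITSN at the left and vehicle at the right. Fibroblast, myofibroblast, smooth muscle, macrophage and skeletal muscle sums are lowest in vehicle 1, the lowest library for 52.1% of all tested genes. The endothelial sum is highest in vehicle 1 and the skeletal muscle sum in ITSN 2. Fn1 was left out of the myofibroblast sum because at 364 to 462 FPKM in ITSN and 325 to 484 FPKM in vehicle it outweighed the other genes.

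Sums of markers of other cell types also differed between libraries, not all in the same way. The 12 skeletal muscle markers, of which 5 were tested and 0 passed, summed to 57.1, 102 and 22.0 FPKM in ITSN 1, 2 and 3 and to 9.81, 25.9 and 27.7 FPKM in vehicle 1, 2 and 3. They were thus highest in ITSN 2. Within ITSN, Acta2, Tagln, Thy1, Pdgfrb, Pdpn and Cspg4 were lowest in that library, and Pdgfra, Rgs5 and, barely, Fap were highest. The order ITSN 3 over ITSN 1 over ITSN 2 was that of 5 of the 8 tested markers and of 36.5% of all tested genes. Within vehicle the muscle sum rose from vehicle 1 to vehicle 3. Acta2, Thy1, Pdgfrb, Rgs5, Fap and Cspg4 rose in the same order there, as did 53.4% of all tested genes, while Pdgfra fell. The 10 macrophage markers, with 0 that passed, summed to 286 to 347 FPKM in ITSN and to 122, 273 and 339 FPKM in vehicle 1, 2 and 3. The epithelial keratin gene Krt8, named after its values were seen, stood at 224 to 236 FPKM in ITSN and 140 to 228 FPKM in vehicle. Epithelial markers, with 8 of 11 tested and 0 that passed, summed to 527 to 558 FPKM in ITSN and 355 to 527 FPKM in vehicle. The part of these cell types in the marker values was not tested. The endothelial sum was highest in vehicle 1. Of 8 adipocyte markers 3 were listed, Adipoq and Plin1 not among them, and they summed to 2.05 to 11.1 FPKM in ITSN and 6.63 to 6.79 FPKM in vehicle. Of 5 glial markers only Mbp was listed.

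Among those lists, the muscle troponin gene Tnnt3 had a log2 change of 0.79, the claudin genes Cldn4 and Cldn7 of 0.82 and 0.33, the lipid carrier Fabp4 of -0.62, the adipsin gene Cfd of 0.52 and Mbp of 0.30 (limma adjusted p from 0.20 to 0.73). Without vehicle 1, Tnnt3 stood at 0.46 and Cfd at 0.092. The log2 change of Cd14, a monocyte receptor, was 0.61 (limma adjusted p = 0.17). Without vehicle 1 it was 0.36 and Cd14 passed, as did Cldn4 and Itgam. The integrin gene Itgam had -0.93 (limma adjusted p = 0.085), but it holds 2 rows whose sum was 21.2, 25.1 and 16.8 FPKM in ITSN 1, 2 and 3 and 12.1, 16.0 and 24.1 FPKM in vehicle 1, 2 and 3, so the value of its larger row alone is uncertain.

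The genes whose profiles over the 6 libraries lay closest to those of 3 markers were found by the root mean square difference of log2(FPKM + 1) about each gene's mean, a description of 6 libraries with no test. For Pdgfra they were Samd12 (0.041), Fut8 (0.047) and Nr2f1 (0.051), beside a root mean square of 0.37 for Pdgfra itself. For Acta2 they were Rgs16 (0.074), Lims1 (0.080) and B130021K23Rik (0.088), beside 0.31 for Acta2. For Rgs5 they were Cyp51 (0.035), Tspan6 (0.039) and Casp1 (0.039), beside 0.20 for Rgs5. Some listed genes, looked at after the values were seen, ordered the libraries exactly as Pdgfra did, an order of 0.726% of all tested genes. They were 2 of 10 tested endothelial markers, Pecam1 and Cdh5, and 1 of 6 tested other pericyte genes, the phosphodiesterase gene Pde5a. The endothelial gene Eng was instead lowest in vehicle 1 and highest in ITSN 3. Cdh5 had 11.3, 13.7 and 9.47 FPKM in ITSN 1, 2 and 3, against 17.4, 13.1 and 11.1 FPKM in vehicle 1, 2 and 3.

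In the mm10 coordinates of the table, Pdgfra lies on chromosome 5 at 75152292 to 75198215, Pdgfrb on chromosome 18 at 61045150 to 61085061, Acta2 on chromosome 19 at 34241090 to 34255336 and Rgs5 on chromosome 1 at 169655501 to 169695813. Thy1 (44043384 to 44048579), Tagln (45929619 to 45936058) and Cspg4 (56865033 to 56899870) lie on chromosome 9, Fap on chromosome 2 at 62500943 to 62574075 and Pdpn on chromosome 4 at 143267431 to 143299564. Exons of Pdgfra overlap the noncoding genes Gm42802 and Gm42803 on the opposite strand, and Mir7025 lies in it on the same strand. The markers other than Pdgfra and Tagln shared no exonic bases with another gene of the annotation.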

How the data were processed

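RNA was sequenced from 6 mice, 3 given ITSN and 3 given DMSO, grouped by the treatment label. Per the labels' protocols, the mice were assigned at random and dUTP was used in making the double-stranded cDNA. The authors deposited 1 table of FPKM, named so per the file headers, with mm10 as the build per the submitters' processing notes. No source used here names the aligner, the quantifier or the strand setting. The table held 13823 genes and 1 blank line. Columns were matched to samples by their descriptions. The last ITSN column matches that sample's description, whose number differs from its title. Low FPKM values were checked for multiples of 1 read, and the periodicity did not exceed the highest of jittered values, so no counts were recovered.

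Genes that reached 1 FPKM in 3 or more libraries were tested as log2(FPKM + 1), which understates changes of low genes, in limma 3.58.1 (R 4.3.3, eBayes with trend, two-sided, Benjamini-Hochberg over 12257 genes, threshold 0.05). The fit was tested on simulated data. Permutation tests are exact and two-sided. GC content is that of the longest GENCODE M21 transcript, found for 99.7% of genes. Promoter sequences are RefSeq's (GRCm38.p6). Python 3.11.15, pandas 2.3.3, numpy 2.4.6, scipy 1.17.1 and matplotlib 3.10.9 did the rest.

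The markers and the 17 gene lists were chosen with earlier results of these data known. Named are all markers, per list the genes that passed or else the 2 with the smallest p, every ligand, actin and calponin family gene, and the 3 genes most like each of 3 markers. The alternatives were other pseudocounts, filters and scalings, removal of the GC trend, leaving out libraries, a replicate block and no trend.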

Additional observations from a re-analysis of the deposited data

How the results depend on the processing

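None of the 8 tested markers passed in any of the 18 alternatives, where the lowest adjusted p was 0.061. It was that of Rgs5 without both vehicle 1 and ITSN 2, a choice made after the values were seen. Over all genes, limma called 7. The count was 19 with a filter of 5 FPKM, 115 after trimmed-mean scaling, 93 after quantile normalization, 156 after rescaling without mitochondrial and ribosomal RNA region genes and 1034 without both vehicle 1 and ITSN 2. With single libraries left out it ran from 1 (without ITSN 3) to 673 (without vehicle 1), with 2 without vehicle 2, 4 without ITSN 1 and 2 without ITSN 2. With the replicate number as a block limma called 2. Same-numbered libraries deviated together with correlations of -0.0038, -0.136 and 0.242. ITSN 3 and vehicle 3 correlated best with their own number, and ITSN 1 and 2 and vehicle 1 and 2 did not. Such correlations cannot show whether the mice were paired, and the number of ITSN 3 differs between its title and its description.

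Signs turned for 5 markers. Without vehicle 1 the log2 change was 0.048 for Pdgfra, -0.018 for Pdgfrb, -0.087 for Fap and -0.040 for Thy1. With the GC trend removed as well it was 0.096, -0.16 and -0.21 for Pdgfra, Pdgfrb and Thy1. Acta2 was at 0.060 without vehicle 3, 0.23 without ITSN 2 and 0.11 without vehicle 1 and ITSN 2, where Fap was at -0.089. With single libraries left out the ranges were -0.46 to 0.048 for Pdgfra, -0.018 to 0.71 for Pdgfrb, -0.26 to 0.23 for Acta2, -0.087 to 0.33 for Fap and -0.040 to 0.76 for Thy1. Tagln, Rgs5 and Pdpn kept their sign in these alternatives, with ranges of 0.042 to 0.52, -0.36 to -0.15 and 0.10 to 0.52.

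Of the other named genes, Pdgfc turned to 0.13 without vehicle 1, 0.12 with the GC trend removed as well and 0.15 without ITSN 3. Srf turned to -0.079 with the GC trend removed and -0.14 without vehicle 1 as well. Actb turned to -0.014 after trimmed-mean scaling, -0.044 without vehicle 1, -0.066 with the GC trend removed as well and -0.10 without vehicle 1 and ITSN 2. Tagln2 and Anpep turned to -0.092 and -0.029 without vehicle 1 and the GC trend. Lyve1 turned to -0.028 after quantile normalization, -0.023 without ITSN 2 and -0.073 without vehicle 1 and ITSN 2. Cfd turned to -0.058, -0.48 and -0.16 without ITSN 2, without vehicle 1 and ITSN 2, and without vehicle 1 and the GC trend. With single libraries left out the ranges were -0.25 to 0.15 for Pdgfc, -0.044 to 0.19 for Actb, -0.023 to 0.19 for Lyve1 and -0.058 to 1.28 for Cfd. The cause was not tested. Depth is unknown, so what it limits cannot be stated.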
